A study of Mus musculus with 12 samples.

Results

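Hes1, Hes6, Hey1, Hey2, Heyl and Nrarp were followed through 4 states of mouse muscle stem cells (MuSCs). They were taken by exact gene name, whatever their values, and are 6 of the 55335 annotated genes with counts. The first 5 encode basic helix-loop-helix transcription factors of the Hes and Hey families, and Nrarp encodes a small ankyrin repeat protein that is no transcription factor but sits in the same pathway. All 6 were abundant enough in at least 1 group to be tested, Hey2 only through the freshly isolated cells and Nrarp only through the freshly isolated and the compressed cells.

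Total RNA was sequenced from MuSCs of Pax7-ZsGreen mice, 3 to 6 months old, in which the Pax7 regulatory region drives a green fluorescent protein, and the cells were sorted from hindlimb muscle by that fluorescence. No other allele or drug was used, and all 4 groups carry the transgene. Freshly isolated cells (F) went into lysis after sorting. Cells cultured for 2 days without compression (2d-U) and for 5 days without compression (5d-U) grew on plastic coated with Matrigel and fibronectin, in a growth medium with fibroblast growth factor, horse serum and fetal bovine serum. Compressed cells (2+3d-C) had the same first 2 days and then spent 3 days under a silicone pillar device that held them to a low height. Each group had 3 libraries, called here by their replicate numbers: F 1, 4 and 5, 2d-U 1, 2 and 3, 5d-U 1, 2 and 6, and 2+3d-C 4, 5 and 10. Nothing in the labels says whether the replicates of a group came from separate mice, so p-values measure the spread between these libraries.

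Notch receptors are cut after they bind a ligand on a neighbouring cell, and the freed intracellular part joins the DNA-binding protein RBPJ and switches on its targets. Hes1, Hey1, Hey2 and Heyl are classic targets and encode repressors, of which Hes1 recruits Groucho/TLE corepressors. Nrarp is a target whose product dampens the same signal. Quiescent MuSCs depend on Notch and RBPJ, and Hey1 and Heyl hold back myogenic differentiation in them, whereas Hes6 binds Hes1, blocks its action and is known to rise in myoblasts that differentiate.

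The libraries held 12540745 to 62424851 counted reads, with 2+3d-C 5 the shallowest. The 9 MuSC markers, led by Myod1 and Sdc4, were all detected in each group. Their summed level was 826 to 2130 RPKM for F, 853 to 1010 RPKM for 2d-U, 838 to 1430 RPKM for 5d-U and 5530 to 6610 RPKM for 2+3d-C, above all others. RPKM stands for reads per kilobase of exon, divided by the library size in units of 1000000 reads after scaling by the TMM method. Most of the sum in 2+3d-C came from Myod1 and Sdc4, with means of 3190 and 1900 RPKM. Pax7, named after its value was seen, had its lowest mean in F (2.51 RPKM). Its means were 5.76 RPKM in 2d-U, 4.48 RPKM in 5d-U and 13.3 RPKM in 2+3d-C. Reads on olfactory and vomeronasal receptor genes, which muscle is not expected to transcribe, reached 5.13 and 7.24 per kilobase in F 4 and F 5 and 3.87 and 0.627 in 5d-U 1 and 5d-U 6, against 0.00985 to 0.232 in the other 8 libraries. The reads that this density predicts are given below for the members at low counts.

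The plot of RPKM by library shows 3 patterns among the 6 genes. Heyl, Hey1 and Nrarp were high in F and in 2+3d-C and low in both uncompressed cultures. Hes6 ran the other way, with its highest levels in 5d-U and its lowest in 2+3d-C and in 2 of the 3 F libraries. Hes1 was expressed in all 4 groups and was called in no comparison of the fit described next, and Hey2 was near the detection limit outside F.

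**Figure D1:**
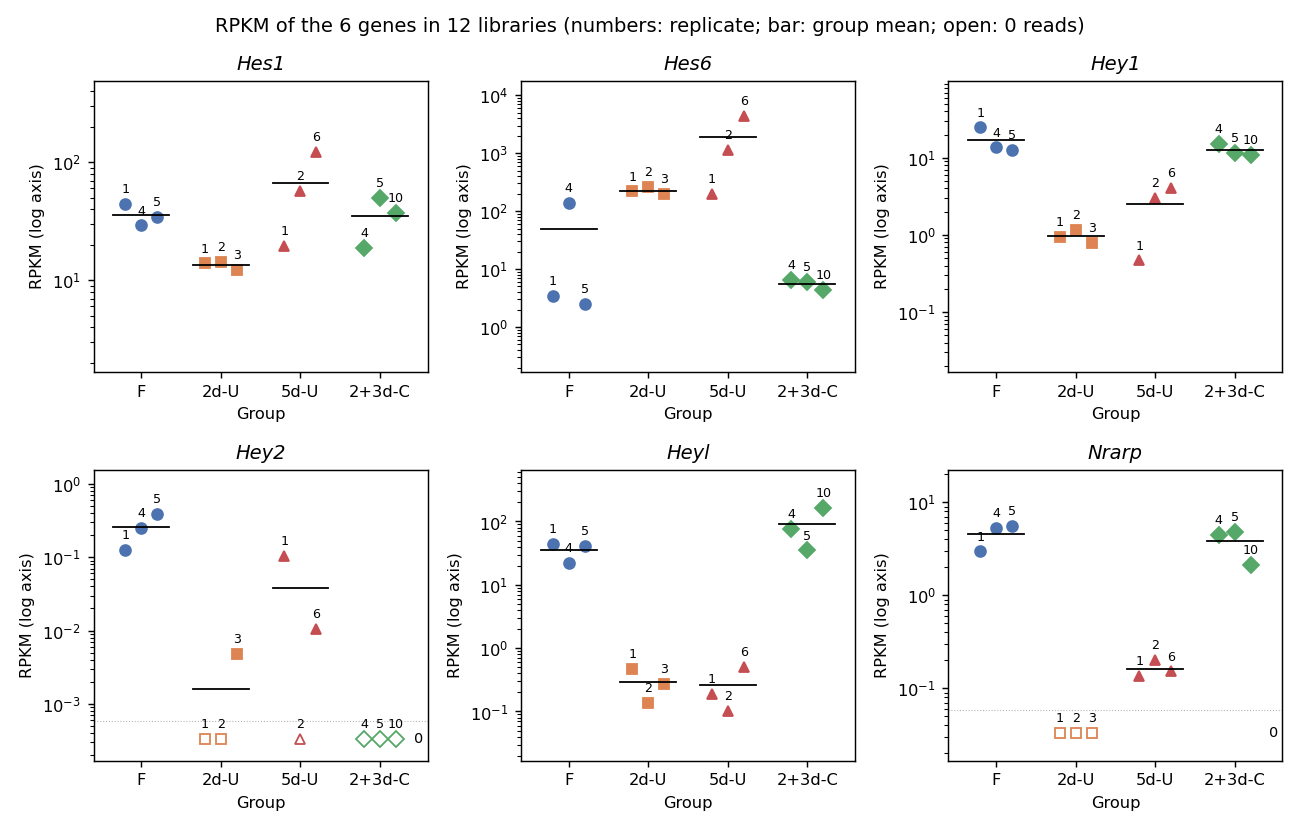
RPKM (log axis) of each gene in the 12 libraries, with the replicate number at each point, the group mean as a bar and libraries with 0 reads drawn open below the dotted line. Heyl is at 34.9 to 164 RPKM in 2+3d-C and at most 0.507 RPKM in the uncompressed cultures, while Hes6 is at most 6.58 RPKM in 2+3d-C and at least 196 RPKM in the uncompressed cultures.

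Between 2+3d-C and 5d-U, the cultures of equal total duration, 3 members rose (Heyl, Hey1 and Nrarp) and 1 fell (Hes6) at an adjusted p under 0.05 in an edgeR quasi-likelihood fit over all 12 libraries and 22635 genes. Of all genes tested, 9.14% were called higher and 13.4% lower in that comparison. Against 2d-U, the state in which compression began, the same 3 members were called higher and Hes6 lower, beside 16% and 8.63% of all genes. Nrarp could be tested only through F and 2+3d-C. That filter favours its calls of higher in 2+3d-C, which are weaker support than those of Heyl and Hey1. No member passed the threshold between 2+3d-C and F, where 1.94% of all genes were called higher and 4.47% lower. Hey1, Heyl and Hes6 are shown in the study itself as changed in these libraries, so their directions here are no independent evidence.

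The uncompressed cultures gave the other 3 comparisons. From F to 2d-U, 4 members fell (Hey1, Hey2, Heyl and Nrarp) and none was called higher, where 33.3% of all genes were called lower and 10.6% higher. Hey2 could be tested only through F, and Nrarp only through F and 2+3d-C, the groups where each was high. That filter favours a fall from F, so these 2 calls are weaker support than those of Hey1 and Heyl. From F to 5d-U, 3 fell (Hey1, Heyl and Nrarp) and Hes6 rose, with 8.9% of all genes called lower and 11.6% higher. Without the 4 libraries with most reads on silent receptor genes, none of those 3 falls passed (adjusted p = 0.126, 0.0503 and 0.376 in that order). Between 2d-U and 5d-U, Nrarp alone was called, as higher in 5d-U, beside 1.87% of all genes called higher and 0.243% called lower. Each group enters 3 of these comparisons, so they share libraries and are not independent of each other. In these bulk samples, fewer cells that express a gene and less of its RNA per cell cannot be told apart.

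**Figure D2:**
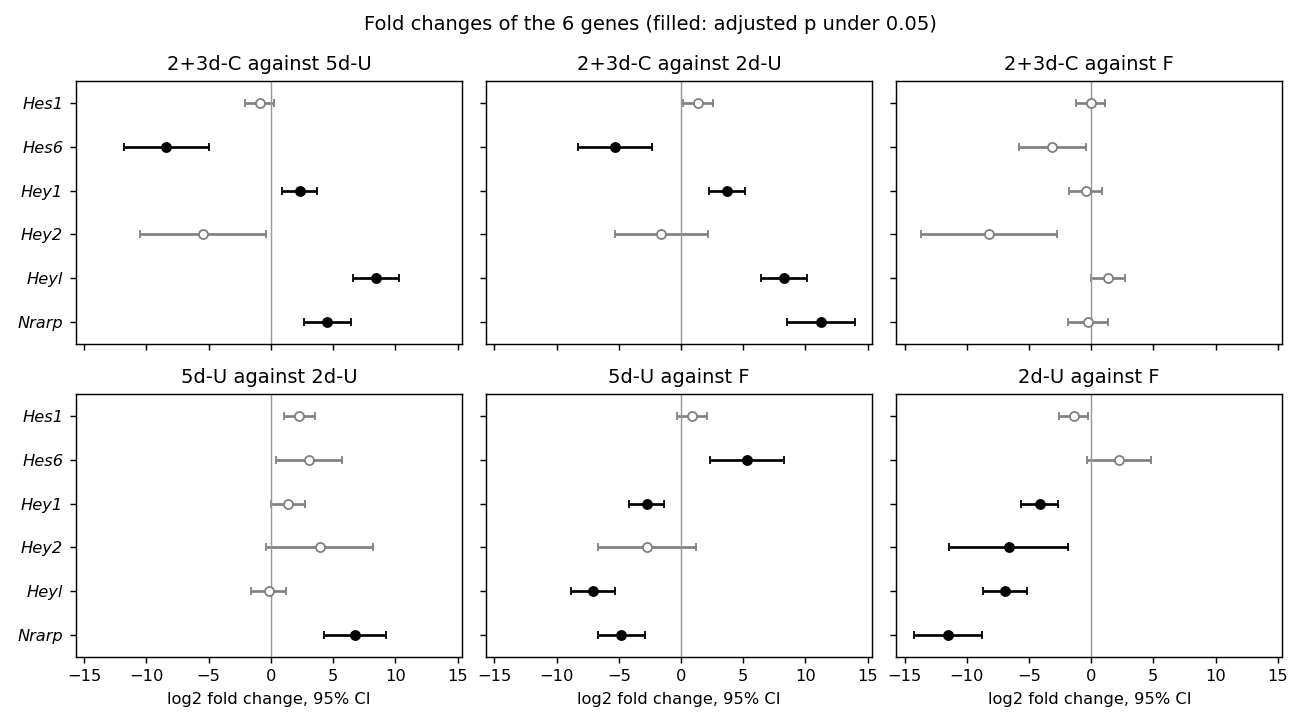
log2 fold change of each gene in the 6 comparisons (first group against second), with its 95% confidence interval and a filled point where the adjusted p is under 0.05. Heyl, Hey1 and Nrarp lie to the right and Hes6 to the left when 2+3d-C is set against either uncompressed culture, and all points are open for 2+3d-C against F.

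Heyl, a target gene known for strong induction by Notch in MuSCs, had the largest rise in compressed over uncompressed cells among the 4 members that were detected in every library. It lies on the plus strand at chr4:123233556-123249875 (mm10), and its 5113 exonic bases overlap no other gene's exons. Its level was 76.9, 34.9 and 164 RPKM in 2+3d-C 4, 5 and 10, and 0.187, 0.102 and 0.507 RPKM in 5d-U 1, 2 and 6. The 2d-U libraries had 0.47, 0.138 and 0.273 RPKM and the F libraries 44.1, 22.4 and 41.5 RPKM. Every compressed library was thus far above every uncompressed one, and the compressed and fresh libraries overlapped, with 2+3d-C 5 below F 1 and F 5.

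The mean of 91.9 ± 65.8 RPKM in 2+3d-C (SD, n = 3) was 345 times the 0.266 ± 0.213 RPKM of 5d-U (log2 fold change 8.45, 95% interval 6.57 to 10.32, adjusted p = 2.55e-05) and 314 times the 0.293 ± 0.167 RPKM of 2d-U (log2 fold change 8.27, adjusted p = 2.39e-05). Leaving out any library kept the log2 fold change against 5d-U between 7.72 and 9.31. The loss of Heyl from F (36 ± 11.8 RPKM) to 2d-U was 6.92 on the log2 scale (adjusted p = 6.9e-05), and the uncompressed cultures at both times had nearly the same mean, with an interval of -1.59 to 1.24 for their log2 difference. The compressed mean stood 1.35 above F on the log2 scale, which did not pass (95% interval -0.01 to 2.72, adjusted p = 0.139). In 5d-U 1, 22 Heyl reads were counted where the density on the silent receptor genes predicts 19.8, and in 5d-U 2 the figures were 15 and 0.252.

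Hey1, a related target and partner that can pair with other Hey proteins, followed Heyl with a smaller range. The gene is on the minus strand at chr3:8663359-8667256. It was at 24.7, 13.6 and 12.5 RPKM in F, at 0.95, 1.15 and 0.794 RPKM in 2d-U, at 0.466, 3.01 and 4.03 RPKM in 5d-U and at 15.1, 11.5 and 10.8 RPKM in 2+3d-C. The lowest compressed library was more than every uncompressed library, and the fresh and compressed libraries overlapped. Within 5d-U, replicate 1 was below all of 2d-U while replicates 2 and 6 were above all of it. In 5d-U 1, 35 Hey1 reads were counted where the density on the silent receptor genes predicts 12.7.

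Against 5d-U (2.5 ± 1.84 RPKM, n = 3), the compressed mean of 12.5 ± 2.3 RPKM was 5 times higher (log2 fold change 2.32, 95% interval 0.93 to 3.71, adjusted p = 0.0198). That call was lost without 5d-U 1 (log2 fold change 1.81, adjusted p = 0.0503), without 2+3d-C 4 (2.14, adjusted p = 0.0516) and without the 4 libraries with most reads on silent receptor genes (2.05, adjusted p = 0.137), a fit that leaves F and 5d-U with 1 library each, assumed to vary like the other groups. Against 2d-U (0.965 ± 0.179 RPKM) the rise was 13 times (log2 fold change 3.69, adjusted p = 0.00159) and it passed in each of the 20 alternative fits. Fresh cells had 16.9 ± 6.74 RPKM, and Hey1 fell by 4.13 on the log2 scale from F to 2d-U (adjusted p = 0.000848). For 2+3d-C against F the log2 difference was -0.44 with an interval of -1.76 to 0.88.

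Nrarp, the feedback inhibitor, went from undetected to clearly expressed. No read was counted in any 2d-U library, and the level was 2.96, 5.25 and 5.59 RPKM in F, 0.135, 0.203 and 0.152 RPKM in 5d-U and 4.44, 4.82 and 2.11 RPKM in 2+3d-C. In reads, 5d-U held 8, 15 and 8, and the compressed libraries 611, 103 and 119. The groups separate into F and 2+3d-C, which overlap, then 5d-U, then 2d-U at 0.

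The compressed mean (3.79 ± 1.47 RPKM, n = 3) was 23.3 times that of 5d-U (0.163 ± 0.0354 RPKM, log2 fold change 4.52, 95% interval 2.64 to 6.4, adjusted p = 0.0029), and the call was lost without the 4 libraries named above (log2 fold change 4.21, adjusted p = 0.241). Against 2d-U, with a floor of 3 reads per library and less the reads that the silent receptor density predicts, Nrarp was at least 122-fold higher in 2+3d-C (adjusted p = 7.1e-05) and at least 147-fold higher in F (adjusted p = 7.75e-05). The difference between 5d-U and 2d-U, at least 4.8-fold (adjusted p = 0.0181), rests on those few reads, and it failed in 5 of 19 alternative fits. Nrarp in 2+3d-C differed from F by -0.28 on the log2 scale (95% interval -1.89 to 1.33). Nrarp entered the test only through F and 2+3d-C, which favours calls of higher in these groups. The call for 2+3d-C against 5d-U was also lost in an alternative fit with the replicate number as a block (log2 fold change 4.19, adjusted p = 0.168).

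Nrarp is a single-exon gene on the plus strand at chr2:25180758-25183339, and 2051 of its 2582 exonic bases (79.4%) are also exon of the antisense gene Gm38287. The counting used no strand and assigned no read that overlapped 2 genes, so its levels rest on the other 531 bases, and Gm38287 itself had 0 reads in all 12 libraries. Divided by those 531 bases, Nrarp was at 14.4 to 27.2 RPKM in F, 10.2 to 23.4 RPKM in 2+3d-C, 0.655 to 0.986 RPKM in 5d-U, with none in 2d-U. Over those bases the density on silent receptor genes predicts 2.06 reads in 5d-U 1, where 8 were counted, and at most 0.333 in 5d-U 2 and 5d-U 6, and the fit with such reads subtracted took away the larger number for the full length. The ratios between groups stay as above, but its level set beside those of the other 5 genes depends on which length is used.

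RefSeq holds start regions for 3 of the 6 genes in the table used here (Hes6, Hey2 and Nrarp, build GRCm38.p6, the same assembly as mm10). The 250 bases before the annotated start are shown for them, 5′ to 3′ on the gene's strand. They let the sequence next to the start of 2 Notch targets be set beside that of Hes6. Of these 2 targets, Nrarp moved opposite to Hes6 in 2+3d-C against the uncompressed cultures, and Hey2 did not. Capitals mark the RBPJ core letters TGGGAA on either strand and the E-box letters CANNTG, to which myogenic factors bind. The regions are chr2:25180508-25180757 (plus strand) for Nrarp, chr10:30842784-30843033 (minus strand) for Hey2 and chr1:91414039-91414288 (minus strand) for Hes6, whose second listed start, inside the gene, is not shown.
Nrarp: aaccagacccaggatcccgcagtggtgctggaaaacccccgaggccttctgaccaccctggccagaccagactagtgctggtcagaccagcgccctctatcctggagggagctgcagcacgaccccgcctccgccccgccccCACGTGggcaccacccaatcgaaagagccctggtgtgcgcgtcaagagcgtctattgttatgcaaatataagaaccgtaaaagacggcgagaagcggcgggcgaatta
Hey2: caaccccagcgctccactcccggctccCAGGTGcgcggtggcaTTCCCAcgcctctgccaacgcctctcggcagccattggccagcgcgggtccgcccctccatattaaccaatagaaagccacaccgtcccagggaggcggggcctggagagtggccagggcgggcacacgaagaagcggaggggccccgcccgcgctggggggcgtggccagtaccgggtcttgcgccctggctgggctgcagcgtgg
Hes6: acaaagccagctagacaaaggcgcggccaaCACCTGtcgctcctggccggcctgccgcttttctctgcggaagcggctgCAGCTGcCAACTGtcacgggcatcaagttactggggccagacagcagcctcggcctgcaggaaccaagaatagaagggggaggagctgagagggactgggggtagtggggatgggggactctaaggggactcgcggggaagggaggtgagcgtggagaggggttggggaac

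TGGGAA occurred once in the Hey2 window, starting 207 bases before the start, and in neither the Nrarp nor the Hes6 window. It is found on either strand in 21.6% of the 32851 RefSeq start regions of this length. E-box letters began 220, 171 and 164 bases before the start of Hes6, 108 bases before that of Nrarp and 223 bases before that of Hey2, and 66.2% of all regions hold at least 1. The N-box letters CACNAG, bound by Hes proteins, were present in the Nrarp window at 2 places, 179 and 79 bases before the start. They were in neither other window shown, and in 36.7% of all regions. The window of the second Hes6 start differed from the first. It held an N-box 237 bases and 1 E-box 150 bases before that start, and no TGGGAA. These are matches of letters in short windows, and no binding was measured.

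Hey2, best known for its roles in vessels and heart, was close to silent. It gave 14, 36 and 71 reads in F 1, 4 and 5, 0, 0 and 1 in the 2d-U libraries, 11, 0 and 1 in the 5d-U libraries, and none in 2+3d-C, over 4593 exonic bases at chr10:30832359-30842801. The mean in F was 0.257 ± 0.132 RPKM (n = 3). Reads on silent receptor genes predict 1.06, 23.5 and 33.3 Hey2 reads in F 1, 4 and 5 and 17.8 in 5d-U 1, which is more than the 11 counted there. Only the F libraries and 5d-U 1 thus had more than 1 read, and in 5d-U 1 the count was no higher than the density on silent genes.

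With the floor of 3 reads per library and less the predicted reads, Hey2 was at least 7.87-fold lower in 2d-U than in F (adjusted p = 0.0326) and at least 3.41-fold lower in 2+3d-C than in F (adjusted p = 0.0677), where the p-values come from the counts as deposited. Hey2 entered the test only through F, the group where it was highest, which favours a call of lower than F. The call for 2d-U was lost in 8 of 20 alternative fits, among them those without F 4 (adjusted p = 0.0794) and without F 5 (adjusted p = 0.103). Hey2 differed from Heyl and Hey1 in that it was not detected at this depth after compression, where both of those were at levels that overlapped fresh cells.

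Hes1, a repressor that responds to Notch and to other signals, was the most evenly expressed member. The gene is at chr16:30064384-30067796 on the plus strand. Its levels were 44.3, 29.2 and 34.4 RPKM in F, 13.9, 14.4 and 12.3 RPKM in 2d-U, 19.7, 57.6 and 122 RPKM in 5d-U and 18.8, 50.1 and 37.2 RPKM in 2+3d-C. All 2d-U libraries were below all others, and the other 3 groups overlapped.

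For 2+3d-C against 5d-U the log2 difference of Hes1 was -0.91 (95% interval -2.09 to 0.27, adjusted p = 0.2), and against F it was -0.03 (-1.19 to 1.14). The lower level in 2d-U came close to the threshold, with log2 differences of -1.41 against F and 2.3 for 5d-U against 2d-U (adjusted p = 0.0519 for each), and 10 and 7 of 20 alternative fits called them. The compressed libraries, each above all of 2d-U, differed from it by 1.39 (95% interval 0.19 to 2.58, adjusted p = 0.0828), a difference called in 2 of 20 alternative fits. Among the 5d-U libraries Hes1 spanned 19.7 to 122 RPKM, and its SD of 52 RPKM beside a mean of 66.6 RPKM exceeded that of the compressed libraries (35.4 ± 15.7 RPKM). Compression was therefore set against a group whose own replicates differed more than the 2 means did.

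Hes6 had the highest level and the largest spread of the 6 genes. It lies on the minus strand at chr1:91411483-91414038 and has 1808 exonic bases. Uncompressed cultures had 218, 265 and 196 RPKM at 2 days and 196, 1150 and 4390 RPKM at 5 days, and the compressed libraries had 6.58, 5.95 and 4.32 RPKM. Fresh cells split, with 3.43 and 2.52 RPKM in F 1 and F 5 and 139 RPKM in F 4. Every uncompressed library was above every compressed and fresh library, and F 4 alone lay between the 2 ranges.

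The compressed mean (5.61 ± 1.16 RPKM, n = 3) was 340 times lower than that of 5d-U (1910 ± 2200 RPKM, log2 fold change -8.41, 95% interval -11.83 to -4.99, adjusted p = 0.00201) and 40.3 times lower than that of 2d-U (226 ± 35.4 RPKM, log2 fold change -5.33, adjusted p = 0.0129). Both calls passed in all 20 alternative fits. From 2d-U to 5d-U the log2 rise of 3.08 did not pass (adjusted p = 0.118), and 5d-U 1 had the same level as 2d-U 3. Hes6 in 5d-U was 5.3 above F on the log2 scale (adjusted p = 0.0132), a call lost without F 1 (adjusted p = 0.0529).

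The comparisons of Hes6 with fresh cells turned on F 4. With it, 2+3d-C lay 3.11 below F on the log2 scale (adjusted p = 0.11), and without it the difference turned to 0.92 above (adjusted p = 0.497). In the same way the difference of 2d-U from F was 2.22 (adjusted p = 0.137) with F 4 and 6.26 (adjusted p = 0.00131) without it. Myog, the transcription factor of terminal myogenic differentiation, stood at 231 RPKM in F 4 and at 0.89 and 3.35 RPKM in F 1 and F 5.

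Hes6 and Myog did not share 1 pattern across the cultures. Myog was at 586 and 1110 RPKM in 5d-U 2 and 5d-U 6, where Hes6 was highest, and at 0.378 RPKM in 5d-U 1. In 2d-U, Myog was at 0.472 to 2.17 RPKM in libraries where Hes6 was at 196 to 265 RPKM. In 2+3d-C it was at most 0.0125 RPKM beside Hes6 levels of 4.32 to 6.58 RPKM. Thus Hes6 was at 196 to 265 RPKM in the 4 uncompressed libraries with little Myog RNA and higher in the 2 with much of it.

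These opposite movements changed which gene made up most of the summed level of the 6. Hes6 contributed 93.4% to 94.4% of the summed RPKM in 2d-U and 90.5% to 97.2% in 5d-U. In 2+3d-C its share was 1.98% to 5.54%, and Heyl supplied 63.1%, 32.5% and 75.1% in replicates 4, 5 and 10. Among fresh cells, F 1 and F 5 had 36.9% and 42.8% from Heyl and F 4 had 66.3% from Hes6. The ratio of Hes6 to Heyl was 464 to 11200 in the uncompressed libraries and 0.0264 to 0.17 in the compressed ones, and F 4 (6.21) was the only fresh library with a ratio above 1. The shares add to 100% in each library, so a rise of Hes6 lowers the others, and no test was made of them.

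**Figure D3:**
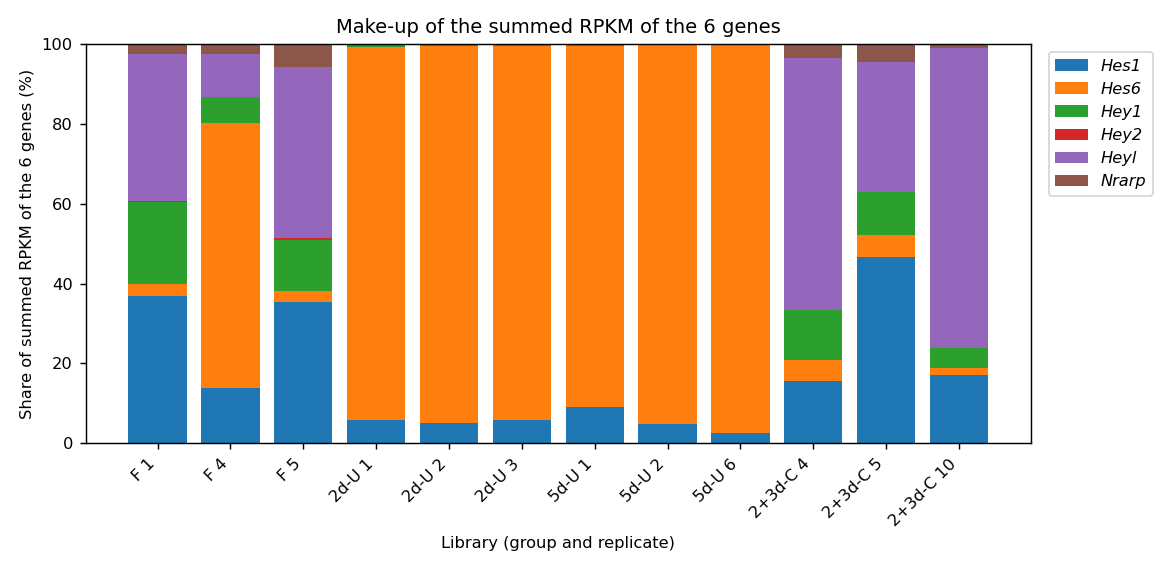
Share of each gene in the summed RPKM of the 6 genes (percent, bars add to 100) for each library. Hes6 takes at least 90.5% of every uncompressed bar and at most 5.54% of every compressed bar, and F 4 is the fresh library with a large Hes6 share (66.3%).

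The choice of reference for the whole transcriptome shifts these fold changes. The median log2 fold change of all genes tested was -1.05 for 2+3d-C against 5d-U, -0.76 against F and 0 against 2d-U, and other scalings moved the first to between -1.21 and -0.9. Relative to the median, Heyl stood at 9.5, Nrarp at 5.57 and Hey1 at 3.37 in 2+3d-C against 5d-U, Hes1 at 0.14 and Hes6 at -7.36. No scaling that was tried changed a direction of Heyl, Hey1, Nrarp or Hes6 against either uncompressed culture.

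Markers of several other cell types moved with Heyl, Hey1 and Nrarp. The 10 endothelial markers, led by Cldn5 and Esam, summed to 281 to 522 RPKM in F, 61.5 to 160 RPKM in 2+3d-C, 1.97 to 10.3 RPKM in 5d-U and 3.09 to 3.9 RPKM in 2d-U. The 10 pericyte and smooth muscle markers, led by Acta2 and Rgs5, summed to 271 to 306, 91.7 to 152, 24.4 to 330 and 29.1 to 39.1 RPKM in the same order. This sum did not move with Heyl in 5d-U 2 and 5d-U 6, where it was 291 and 330 RPKM, above every compressed library. Acta2 alone was at 289 and 326 RPKM there. Rgs5 averaged 53.6 RPKM in F, 7.89 RPKM in 2+3d-C, 0.695 RPKM in 5d-U and 0 RPKM in 2d-U. In 2d-U, 1 endothelial and 6 pericyte markers had 3 or fewer reads in every library, and none of either list did in F or 2+3d-C. Vessel endothelium and pericytes are known to express Hey1 and Heyl too. The sort on Pax7-ZsGreen came before every group, and F, lysed after it, had the highest endothelial sums. The part of endothelial cells and pericytes in these levels was not tested.

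The sums of fibroadipogenic, glial and erythroid markers were likewise high in F and 2+3d-C, and the immune sum was not. The 8 fibroadipogenic markers, led over all libraries by Dcn and Ly6a, summed to 574 to 1450 RPKM in F, 191 to 394 RPKM in 2+3d-C and at most 34.3 RPKM in the uncompressed cultures. Dpt, Pdgfra and Pi16 are named after their values were seen. Dpt led in 2+3d-C (mean 161 RPKM, 71.1 in F), where Dcn and Ly6a averaged 44.5 and 37.6 RPKM. Pdgfra and Pi16 averaged 0.294 and 0.105 RPKM in 2+3d-C, 9.2 and 17 in F and 0.172 and 0.0803 in 5d-U. The 6 glial markers, Mbp among them, gave 96.2 to 154 RPKM in F, 40.7 to 97.1 in 2+3d-C and at most 3.22 in the uncompressed cultures. The 5 erythroid markers, with Hbb-bs and Hba-a1 highest, gave 195 to 866, 32.9 to 417 and at most 0.517 RPKM in the same order. The 8 immune markers, led by Lyz2 and Cd68, were at 258 to 696 RPKM in F, 4.18 to 58.5 RPKM in 2+3d-C, 1.14 to 82.1 RPKM in 5d-U and 0.529 to 1.05 RPKM in 2d-U, so that 5d-U 1 exceeded every compressed library. Set against 5d-U, where 9.14% of all genes were called higher, the compressed libraries had 6 of 10 endothelial, 5 of 10 pericyte and smooth muscle, 4 of 8 fibroadipogenic, 3 of 6 glial, 5 of 5 erythroid and 5 of 9 MuSC markers called higher. Of the 8 immune markers none was called higher and 1 lower.

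Within the compressed libraries the order of Heyl was not that of these sums, while Nrarp had the order of most of them. Nrarp, at 4.44, 4.82 and 2.11 RPKM in 2+3d-C 4, 5 and 10, ranked as the endothelial, fibroadipogenic, glial, erythroid and immune sums did. It did not rank as the pericyte and smooth muscle sum did. Hey1, at 15.1, 11.5 and 10.8 RPKM in the same libraries, had neither order. Heyl was highest in 2+3d-C 10 (164 RPKM), where the endothelial (61.5 RPKM), fibroadipogenic (191 RPKM) and erythroid (32.9 RPKM) sums were lowest, and lowest in 2+3d-C 5 (34.9 RPKM), where those sums were highest (160, 394 and 417 RPKM). The pericyte and smooth muscle sum was 91.7, 152 and 152 RPKM in 2+3d-C 4, 5 and 10, so it was as high in the library with the most Heyl as in the one with the least. Acta2 made up most of that sum, with 60.2, 125 and 126 RPKM. Per 100 RPKM of endothelial markers, Heyl was at 21.8 to 267 RPKM in 2+3d-C and 5.31 to 15.7 RPKM in F, and every compressed library exceeded every fresh library for 4 of the 6 lists of other cell types. Nrarp also exceeded F per marker RPKM in 4 of 6 lists (3.01 to 4.79 against 1.05 to 1.24 per 100 RPKM of endothelial markers). Hey1 did so in 1 of 6, with 7.19 to 17.6 against 2.39 to 8.79 for the endothelial list.

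**Figure D4:**
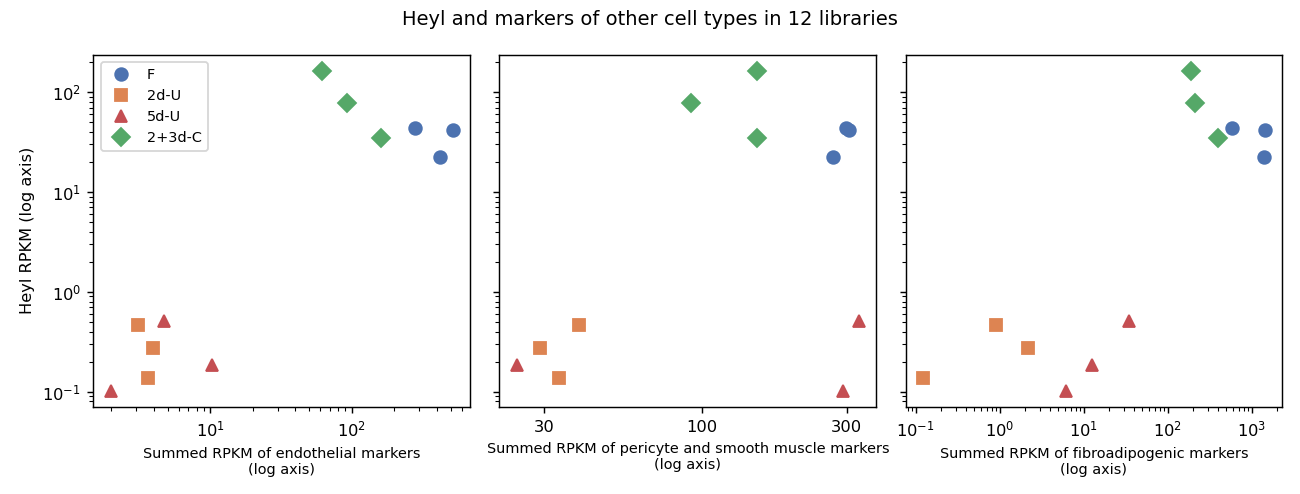
Heyl RPKM against the summed RPKM of endothelial, pericyte and smooth muscle, and fibroadipogenic markers in the 12 libraries (both axes log). F and 2+3d-C lie high on all 3 marker axes compared with 2d-U, and 2+3d-C 10, with 164 RPKM of Heyl, has the lowest endothelial sum of the fresh and compressed libraries.

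The other genes of the pathway were counted over lists of named components. The lists are short, and their counts stand beside 9.14% of all genes called higher and 13.4% lower in 2+3d-C against 5d-U. For 2+3d-C against 5d-U, 1 of 4 receptors was called higher and none lower. That was Notch3, at 56.6, 9.66 and 46.4 RPKM in 2+3d-C and 0.204, 0.237 and 1.28 RPKM in 5d-U (log2 fold change 6.04, adjusted p = 0.000422), and Notch1 missed the threshold (3.71, adjusted p = 0.0563). Of 5 ligands, 2 were called higher and 1 lower. Jag1 rose (log2 fold change 5.14, adjusted p = 0.000488), Jag2 fell by 3.35 (adjusted p = 0.00821), and Dll1, at -2.22, did not pass (adjusted p = 0.083).

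Among 15 genes of receptor processing, 3 were called higher and 1 lower, beside 9.14% and 13.4% of all genes. Furin, the protease that makes the mature receptor, had a log2 fold change of 4.2 (adjusted p = 0.000302), and Ncstn, a gene of the gamma-secretase complex, had 1.18 (adjusted p = 0.0418). Lfng, named after its value was seen, is a glycosyltransferase that alters ligand choice, and it fell by 7.98 (adjusted p = 0.0233). The median log2 fold change was 3.01 over the receptors, -0.85 over the ligands and 0.18 over the processing genes, beside -1.05 over all genes.

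Of the 12 genes around RBPJ, 2 were called higher and none lower, beside the same 9.14% and 13.4% of all genes. The demethylase Kdm5a was among them (log2 fold change 1.35, adjusted p = 0.0306), and the 2 most abundant genes of the list, Hdac1 and Snw1, had -1.04 and -0.45 and did not pass. Rbpj, named after its value was seen, was at 0.48 (adjusted p = 0.487). The Groucho/TLE list had 2 of 5 tested genes called higher, Tle4 (log2 fold change 4, adjusted p = 0.0262) and Tle3 (2.01, adjusted p = 0.0379), while Tle1 was at 0.38 and did not pass. Of 13 genes of receptor turnover, 4 were called higher, among them Dtx3 (3.03, adjusted p = 0.000193) and Numb (2.3, adjusted p = 0.00261), and 1 lower. Medians of these 3 lists were 0.86, 1.87 and 1.03.

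Against F, none of these lists but the last held a call. It had 1 gene called higher and 1 lower in 2+3d-C. Calls were rare among all genes in that comparison, with 1.94% called higher and 4.47% lower. From F to 2d-U, all 4 receptors, 3 of 5 ligands, 4 of 15 processing genes, 6 of 12 genes around RBPJ, 3 of 5 TLE genes and 6 of 13 turnover genes were called lower, in a comparison where 33.3% of all genes were.

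**Figure D5:**
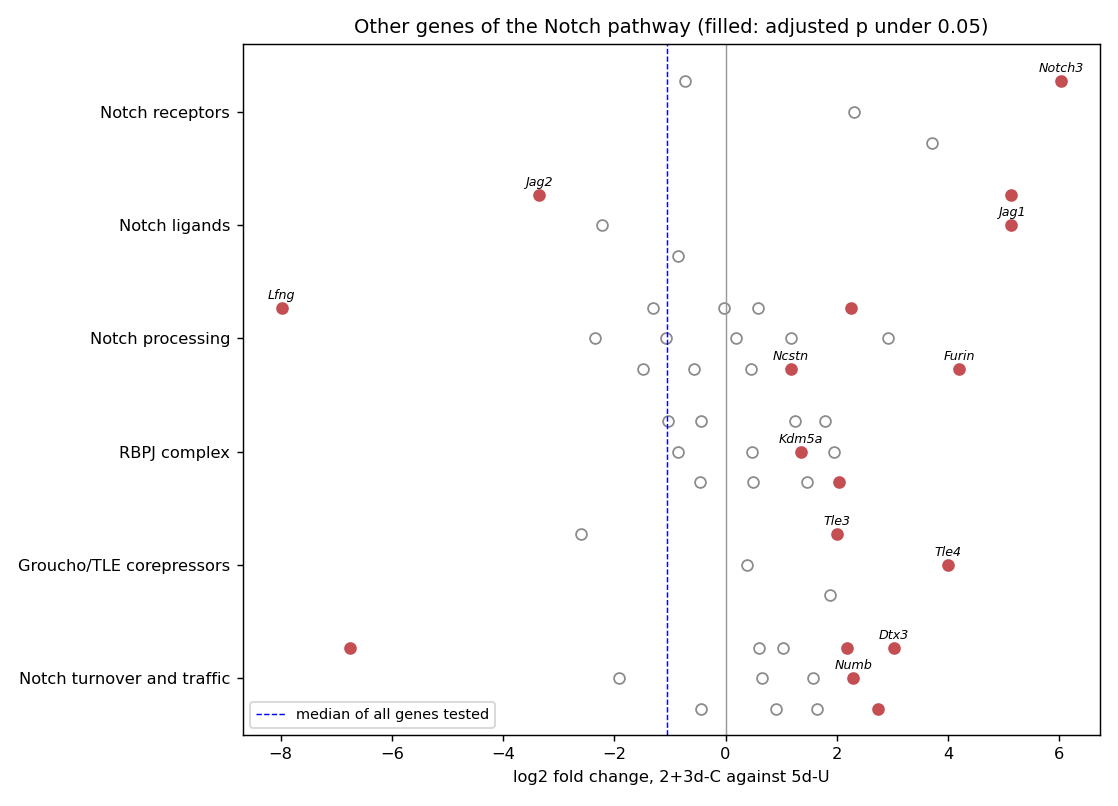
log2 fold change of each tested gene of 6 Notch pathway lists for 2+3d-C against 5d-U, filled where the adjusted p is under 0.05 and with names for genes given in the text, with the median of all genes (-1.05) as a dashed line. Notch3 is the only receptor filled (6.04), and Jag1 (5.14) and Jag2 (-3.35) lie on opposite sides of 0.

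The remaining Hes and Hey relatives were mostly silent. Of the 7 listed, Hes2, Hes3, Hes5, Hes7 and Helt were too low to be tested, with at most 0.364 RPKM in any library. Bhlhe40, a repressor of the same wider family, was at 43.4, 27 and 99.4 RPKM in 2+3d-C and 4.72, 0.356 and 0.478 RPKM in 5d-U (log2 fold change 4.93, adjusted p = 0.00192). Its paralogue Bhlhe41 fell by 4.71 (adjusted p = 0.00591). Among 6 myogenic factors, Myod1 was called higher in 2+3d-C (2770, 4550 and 2240 RPKM, against 604, 949 and 1280 RPKM in 5d-U, log2 fold change 1.76, adjusted p = 0.0101), so Hes6 and Myog were low in libraries with high Myod1 RNA.

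Across the 12 libraries, which share 4 group means and depth differences, log2 CPM of Hey1 correlated with that of Nrarp at r = 0.91 and of Heyl at r = 0.88, and Heyl with Nrarp at r = 0.89. Hes6 and Heyl had r = -0.86, and Hes1 had r = 0.2 with Heyl and r = 0.11 with Hes6. Among 10366 genes with a mean of 5 CPM or more (10367 for Hey2), the 3 most like Heyl were Sorbs3 (r = 0.989), Trib1 and Rab6b (0.984 each), and those most like Nrarp were Tcf4 (0.989), Ogn and Cyp4v3 (0.984 each). Rgs4 (0.974), Pink1 (0.958) and Ugp2 (0.95) were most like Hey1, and Dpp4 (0.981), Col14a1 (0.974) and Mmrn1 (0.956) most like Hey2. For Hes6 they were Nudt14 and Slc25a11 (0.963 each) and Coprs (0.961), and for Hes1 Tppp3 (0.958), Bnip3l (0.925) and Pdlim3 (0.919). By rank correlation, 2 of the 3 stayed for Hes1 and Hey2, 1 for Heyl and 0 for Hes6, Hey1 and Nrarp.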

How the data were processed

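Each of 12 libraries of FACS-sorted mouse MuSCs came as a table of read counts per gene. The authors made these counts from single-end SMART-seq v4 reads aligned to mm10, with featureCounts 1.6.4 on GENCODE vM23 exons, without strand and without counting reads that overlap several genes, per the file headers, and the deposited values are whole reads per gene, not normalized. A merged table deposited with them held identical counts, and 0 columns were left without a sample.

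Groups came from the treatment labels. RPKM was computed from TMM-scaled library sizes and the exon lengths in the tables. edgeR 4.0.16 (glmQLFit and glmQLFTest, two-sided, in R 4.3.3 with limma 3.58.1) was fitted once to all 12 libraries after filterByExpr, with Benjamini-Hochberg adjustment over 22635 genes and a threshold of 0.05, and it was tested on simulated data. Log2 CPM used a prior count of 2. Alternatives were DESeq2 1.42.0, other scalings, no filter, 2 groups alone, a replicate block, subtraction of reads expected from silent genes, omission of 4 libraries and omission of each library. The genes and lists were chosen with earlier results of these data known. Named genes were the members, the 3 genes most like each, the 2 most abundant and the 2 with the smallest p (2+3d-C against 5d-U) of each pathway list and the 2 most abundant of each marker list, and others are marked as named after their values were seen. Some genes that this rule selects are not reported here. Totals of 12540745 to 62424851 counts set the precision, and intervals on fold changes come from the fit. Aes of the TLE list was not found by name.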

Additional observations from a re-analysis of the deposited data

How the results depend on the processing

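For 2+3d-C against either uncompressed culture, the calls of Heyl and Hes6 passed in all 20 alternative fits. Of all member values under the alternatives, 644 kept direction and side of the threshold, 31 crossed to a call, 23 lost one and 14 changed sign, none of the latter with a call. The causes were not tested except where a fit held fewer libraries.

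Members called higher in 2+3d-C against 5d-U numbered 1 without the 4 libraries with most silent-gene reads. Members called lower in 2+3d-C against F numbered 2 with DESeq2, 1 with no filter and 1 with 2 groups alone, and 0 to 2 with 1 library left out. Members called higher in 5d-U against 2d-U numbered 2 with DESeq2, 3 with no filter, and 0 with 2 groups alone, the replicate block, subtraction or without the 4 libraries, and 0 to 2 with 1 library left out. In 5d-U against F, the count of higher members was 0 to 1 with 1 library left out (0 without F 1), and the lower count was 0 without the 4 libraries. Members higher in 2d-U against F numbered 1 with no filter, the replicate block or without the 4 libraries, and 0 to 1 with 1 library left out.

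Log2 differences that changed sign were those of Hes1 in 2+3d-C against 5d-U (0.7, replicate block) and 5d-U against F (-0.75, replicate block), Hes1 in 2+3d-C against F (0.01 with no filter, -0.35 to 0.28 with 1 library left out), Hey1 there (0.02, replicate block), Hes6 there (0.72 without the 4 libraries, -3.78 to 0.92 with 1 left out, the latter without F 4), and Nrarp there (0.36 without the 4, -0.66 to 0.02 with 1 left out). In 5d-U against 2d-U they were Hey2 (-1.6 with subtraction, -1.61 without the 4) and Heyl (-1.04 to 0.34 with 1 left out).

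Same-numbered libraries did not deviate together (r of deviations from group means -0.42 to 0.03 over 6 pairs). The labels do not say whether a shared number marks a shared isolation, and so few pairs cannot decide it. The block was therefore kept as an alternative only. The replicate block lost Nrarp in 2+3d-C against 5d-U (log2 fold change 4.19, adjusted p = 0.168), in 5d-U against F (-4.42, 0.224) and in 5d-U against 2d-U (6.68, 0.0508), and Hey2 in 2d-U against F (-6.53, 0.254), and it called Hes6 there (5.53, 6.71e-05).

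Genes called over the whole table ran from 1138 to 7281 for 2+3d-C against 5d-U (5110 as reported), 1926 to 7432 against 2d-U (5573), 19 to 10063 against F (1449), 11 to 2889 for 5d-U against 2d-U (479), 173 to 6623 for 5d-U against F (4643) and 1695 to 16533 for 2d-U against F (9922).

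Depth limits Hey2 and, in uncompressed cultures, Nrarp and Heyl.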
